A study of Mus musculus with 5 samples.

Results

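The sites described here are ZFP24 chromatin immunoprecipitation peaks that lie far from genes. A peak of either deposited list, one for oligodendrocyte progenitor cells (OPC) and one for differentiated oligodendrocytes (OLG), was counted as far when its centre was more than 100 kb from every start of a protein-coding transcript in the GENCODE M21 basic annotation of mm10. From 4643 peaks of the OPC list the rule took 700, and from 1752 of the OLG list 123, or 823 of 6395 in all. Position alone chose them, and no measured value entered the choice. The series holds 5 libraries, 1 in each group, from brain cells of C57BL/6 mice at postnatal day 7, isolated by immunopanning. Wild-type and Zfp24-null (Zfp191-null) cells were used at each of the OPC and OLG stages, and the fifth library is input chromatin pooled from both genotypes and both stages. OLG were OPC kept for 5 days without PDGF and with 40 ng/ml triiodothyronine, and the antibody was one against ZNF24, another name of the same protein. The null cells and the input are controls, and how they entered the peak calling is not stated in the labels. The values are peak positions only, with no reads per peak, so library depth is unknown and a marker check of the cell types could not be made from these files. With 1 list per cell type and no replicates, each test below compares lists and not replicated conditions, and the 95% intervals cover counting error over peaks or tracts only.

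ZFP24 is a zinc finger transcription factor of oligodendrocytes, the glia that wrap axons in myelin, and it is known to bind tandem repeats of the unit TCAT. Sites far from promoters can act as enhancers that loop to a gene some distance away, and genes that direct development often sit beside long stretches without other genes. The introns of very long genes, many of them adhesion and synapse genes, are the other place in the genome where a site can be far from every start. The genes that flank a far peak are neighbours, and position alone does not name the gene that a site acts on.

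The sequences of 10 far sites are printed first because the repeat sets apart the far sites that both cell types share. All are the plus strand of mm10, read from GRCm38.p6, and capitals mark the longest unbroken run of the TCAT unit, in any phase and on either strand (the other strand reads ATGA). The first 7 were peaks in both lists and are shown as the run with 15 bases to each side. At the Vrk1 site the printed bases lie in the OPC peak and end before the OLG peak begins.
Ubash3b side, between Ubash3b and Sorl1 (chr9:41274413-41274498): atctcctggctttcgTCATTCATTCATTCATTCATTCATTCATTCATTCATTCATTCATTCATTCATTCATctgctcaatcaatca
Nos1ap intron (chr1:170459493-170459558): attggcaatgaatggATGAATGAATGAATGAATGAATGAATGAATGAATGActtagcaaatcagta
Prkch intron (chr12:73775302-73775367): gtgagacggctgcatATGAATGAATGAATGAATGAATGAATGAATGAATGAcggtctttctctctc
Sesn3 side (chr9:14174628-14174690): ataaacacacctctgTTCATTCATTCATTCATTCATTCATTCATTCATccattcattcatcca
Slit3 intron (chr11:35587828-35587889): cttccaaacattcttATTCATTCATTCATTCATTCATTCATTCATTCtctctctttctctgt
Chst11 intron (chr10:83103438-83103496): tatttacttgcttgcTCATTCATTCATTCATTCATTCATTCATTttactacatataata
Vrk1 side (chr12:106430952-106431019): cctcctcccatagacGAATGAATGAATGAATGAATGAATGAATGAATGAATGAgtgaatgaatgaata
The next was a peak in both lists with no such run. It is shown as the bases that the OPC peak and the OLG peak have in common.
Ets1 side, between Ets1 and Kirrel3 (chr9:32830446-32830495): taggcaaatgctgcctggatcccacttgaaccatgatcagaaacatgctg
The last were OPC peaks only. They are the far peak with the longest run, beside Id2, and the far peak with the greatest distance from any start, which has no run and is printed whole.
Id2 side (chr12:25383768-25383856): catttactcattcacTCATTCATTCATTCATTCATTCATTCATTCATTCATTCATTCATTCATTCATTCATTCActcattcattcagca
Cntnap5b side (chr1:101692099-101692307): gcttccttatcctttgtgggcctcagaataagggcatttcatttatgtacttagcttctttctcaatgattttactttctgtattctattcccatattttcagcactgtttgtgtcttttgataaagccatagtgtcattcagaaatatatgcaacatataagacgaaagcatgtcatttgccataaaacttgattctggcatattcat

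Far peaks were a larger part of the OPC list than of the OLG list. They made up 15.1% of OPC peaks and 7.02% of OLG peaks, an odds ratio of 2.35 (95% interval 1.92 to 2.90), with an adjusted p of 1.13e-18 in a two-sided Fisher's exact test (adjusted by Benjamini-Hochberg over the 14 tests of peaks and tracts). Sequence over 100 kb from a start made up 40.5% of the genome (1036 of 2559 Mb, chromosome Y left out), so both lists held fewer far peaks than their share of the sequence. Over 200 kb the shares were 6.89% and 2.91%, with an odds ratio of 2.47. Most far sites had the start of another kind of gene or transcript within that distance. Counting the starts of every gene type, 147 of the 700 far OPC peaks and 29 of the 123 far OLG peaks remained over 100 kb from a start, and the shares of the lists fell to 3.17% and 1.66% (odds ratio 1.94, adjusted p = 0.00136 in Fisher's exact test). Within 1 kb of the start of a non-coding gene lay 26 far OPC peaks (3.71%) and 9 far OLG peaks (7.32%).

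The density of peaks went on falling with distance beyond 100 kb in both lists. OPC peaks numbered 1.42 per Mb of sequence at 10 to 100 kb from a start, 1.06 per Mb (exact Poisson interval 0.960 to 1.18) at 100 to 200 kb, 0.644 (0.569 to 0.727) at 200 to 500 kb and 0.215 (0.164 to 0.278) over 500 kb. OLG peaks numbered 0.405 per Mb at 10 to 100 kb, and then 0.202 (0.158 to 0.254), 0.114 (0.0831 to 0.151) and 0.0182 (0.00592 to 0.0426). The intervals of the 3 far bins do not overlap within either list. Far peaks had a median distance of 183526.5 bp for OPC, and of 170657 bp for OLG. Past 500 kb there were 59 OPC peaks and 5 OLG peaks, and past 1 Mb 7 and 1.

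**Figure D1:**
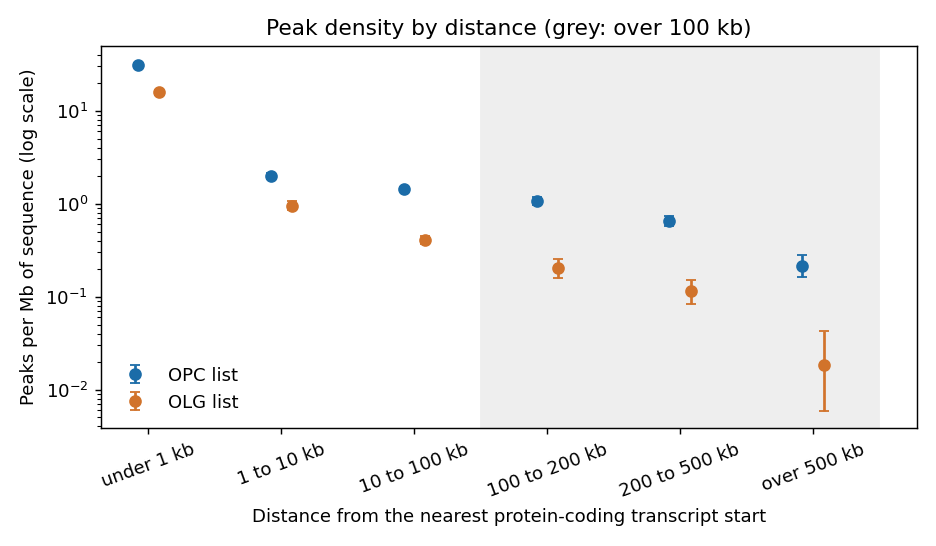
Peaks per Mb of sequence (log axis) in 6 bins of distance from the nearest protein-coding transcript start, for the OPC and the OLG list, with exact Poisson 95% intervals; grey marks the bins over 100 kb. Density falls from 1.06 to 0.215 per Mb across the grey bins in OPC and from 0.202 to 0.0182 in OLG.

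The most remote sites of both lists lay between protein-coding genes. The farthest OPC peak was 1919438 bp from the start of Cntnap5b, a contactin-associated protein gene, in a gap of 4282586 bp that ends at the cadherin gene Cdh20. The next was 1640249 bp from Tenm2, a teneurin gene of the synapse. The gap between Tenm3, another teneurin gene, and the lysosomal enzyme gene Aga held the following pair, 1591304 bp from Tenm3 and 1504450 bp from Aga, and the fifth was 1489142 bp from Fstl5, a follistatin-like gene. All 5 lacked the TCAT run. Of the 5 farthest OLG peaks the first was 1061159 bp from Nsun3, an RNA methyltransferase gene, in the gap to the ephrin receptor gene Epha6. The others were nearest to Fbxo33 (892238 bp), Tmem182 (865156 bp, with the neural transcription factor gene Pou3f3 on its other side), the innate immune receptor gene Tlr4 (862480 bp) and Gm9195 (504995 bp), and they too lacked the run.

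At the 100 kb limit the choice of members was close for a few peaks. In OPC the nearest peaks left out were 99984 bp from Zmiz1 and 99816 bp from Ptpn1, and the nearest taken in were 100329 bp from Mapkap1 and 100410 bp from Zfp423. In OLG those left out were 99642 bp from Ptpn1 and 98110 bp from Ldhal6b, and those taken in 100453 bp from Sesn3 and 101739 bp from Otulinl. The Ptpn1 site, in both lists and with a run of 22 bases at the OPC peak, is thus just outside, and the Sesn3 site, in both lists with a run of 33 bases, just inside.

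Long genes held more of the far peaks than their part of the far sequence, and the widest deserts held fewer. Within bodies of protein-coding genes were 253 far OPC peaks, or 36.1% (32.6 to 39.8), and 50 far OLG peaks, or 40.7% (31.9 to 49.9), while these bodies made up 22.4% of the far sequence. Gaps of over 1 Mb between protein-coding genes held 136 OPC peaks (19.4%) and 24 OLG peaks (19.5%), and made up 42.9% of the far sequence. Per Mb, OPC peaks numbered 1.09 (0.960 to 1.23) in gene bodies, 1.09 (0.931 to 1.28) in gaps under 500 kb, 0.707 (0.599 to 0.830) in gaps of 500 kb to 1 Mb and 0.306 (0.257 to 0.362) in gaps over 1 Mb. In OLG the densities in the same order were 0.216, 0.157, 0.122 and 0.0540 (0.0346 to 0.0804). The wider gaps also hold the more distant sequence, so width of the gap and distance from a start cannot be told apart in these densities. Far peaks inside gene bodies were also nearer to a start than those outside. Their median distance was 159863 bp against 212920 bp in OPC, and 148267.5 bp against 200471 bp in OLG. Whether gene bodies and gaps differ at equal distance was not tested. OPC and OLG did not differ detectably in how far peaks divided between gene bodies and gaps (odds ratio 0.827, 0.549 to 1.25, adjusted p = 0.422 in Fisher's exact test), an interval that takes in differences in both directions.

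**Figure D2:**
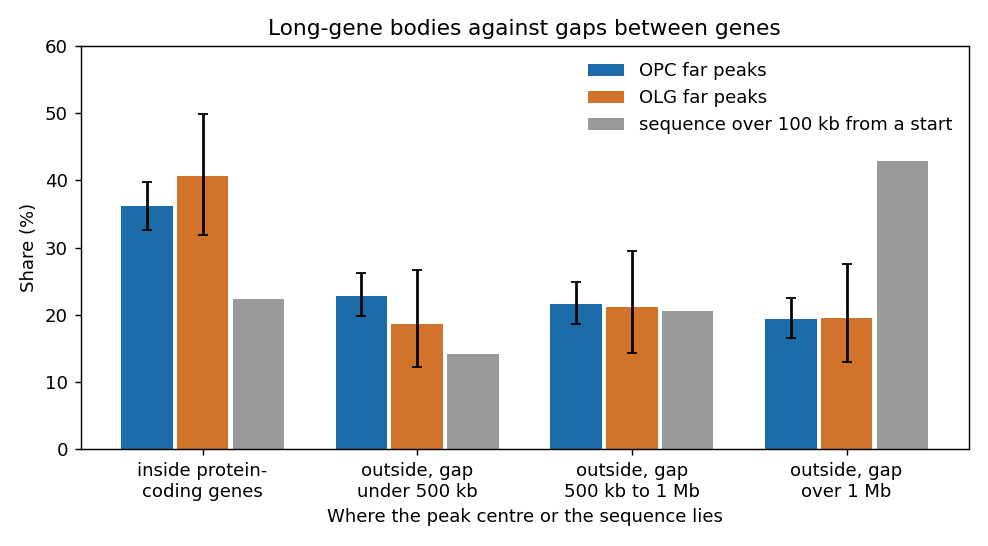
Share of far OPC peaks, far OLG peaks and all sequence over 100 kb from a start (percent) that lies inside protein-coding genes or in gaps of 3 widths; bars on the peaks are exact binomial 95% intervals. Gene bodies hold 36.1% and 40.7% of far peaks and 22.4% of far sequence, and gaps over 1 Mb hold 19.4% and 19.5% of far peaks and 42.9% of far sequence.

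Inside genes nearly all far peaks were intronic. Introns accounted for 249 of 253 in OPC and 48 of 50 in OLG, and exons for the other 4 and 2. Their host genes had a median length of 437300 bp in OPC and 417167 bp in OLG. For 178 of 253 in OPC and 29 of 50 in OLG the nearest start was that of the host, so that the remainder were deep in 1 gene but closer to the start of a neighbour. Outside genes, 89 of 447 far OPC peaks and 13 of 73 far OLG peaks lay in an annotated non-coding gene. These gaps had a median width of 678754 bp for OPC peaks and 658518 bp for OLG peaks.

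The far OPC peaks were spread over 190 host genes, 42 of them with at least 2 peaks, and these are 14.5% of the 1314 protein-coding genes whose body holds far sequence. The far OLG peaks had 45 hosts, 3.42% of the same genes, 5 of them with at least 2. In OPC, Prkg1, the gene of a cGMP-dependent protein kinase, held 5 far peaks at 146166 to 262842 bp from a start, none with the TCAT run. Zfhx3, a homeobox zinc finger gene, held 5 as well, also without the run. Gm20388 held 5, but its annotated body of 4434882 bp spans other genes, and counting as outside the 3 OPC peaks and 2 OLG peaks that had no other host left the share inside genes at 35.7% in OPC and 39.0% in OLG. Csmd2, a membrane protein gene of the CUB and sushi domain family, held 3 in 222052 bp of far sequence, 2 of them with the run. Cdh13 (a cadherin), Dennd1a (an exchange factor for a Rab GTPase), Fhit (a nucleotide hydrolase whose gene is a fragile site) and Fstl4 held 3 each without the run, a number that further genes reached too. In OLG the genes with 2 far peaks were Dlgap1, a postsynaptic scaffold gene, Nav2, a neuron navigator gene, Prkch, the gene of protein kinase C eta, Tmem132b and Gm20388.

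Between genes, far OPC peaks fell in 315 gaps, of which 80 held at least 2, and far OLG peaks in 69 gaps, of which 4 held at least 2. The gap between Tmem38b, an ion channel gene of the endoplasmic reticulum, and the zinc finger gene Zfp462 held 6 OPC peaks and 1 OLG peak. The gap between the kinesin gene Kif2a and Ndufaf2, the gene of a complex I assembly factor, held 6 OPC peaks. The gaps Auts2 to Castor2, Csnk1g3 to Zfp608 and Kazn to Prdm2 held 5 OPC peaks each and no OLG peak, and the gap Ets1 to Kirrel3 held 4 OPC peaks and 1 OLG peak, tied at 5 with 3 further gaps. These peaks were not tight clusters, since 27 of the 700 far OPC peaks (3.86%) and 2 of the 123 far OLG peaks lay within 10 kb of another peak of their list, against 9.64% of the other OPC peaks. The far share varied between chromosomes from 6.25% (X, 2 of 32 peaks) to 23.9% in OPC and from 2.08% to 22.0% (chromosome 12, 11 of 50 peaks) in OLG.

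The base composition of far peaks was unlike that of peaks near genes. In the 200 bp around the centre the GC content had a median of 46.5% in far OPC peaks and 49.0% in far OLG peaks, against 53.0% and 60.5% in the other peaks of each list, and 44.5% in both lists for windows 2 kb to the right of the far peaks. CpG-rich windows, with over 50% GC and a CpG ratio over 0.6, made up 2.29% of far OPC peaks and 4.88% of far OLG peaks, against 34.3% and 50.5% of the other peaks. Peaks 10 to 100 kb from a start had 4.44% and 9.78%, so most of that contrast lies between promoter-near peaks and all the rest. Inside and outside genes, far OPC peaks had nearly the same median GC content, 46.5% and 46.0%. Windows with over 50% of bases masked as repeats made up 9.86% of far OPC peaks and 6.50% of far OLG peaks, against 7.41% of the other OPC peaks. Among peaks 10 to 100 kb from a start they made up 12.4% in OPC and 8% in OLG, above the far peaks of each list.

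A TCAT repeat of at least 12 bases was at a minority of far peaks and at none of their right flanks. A run of at least 12 bases lay in the 200 bp window of 119 far OPC peaks, or 17% (14.3 to 20.0), where all OPC peaks gave 12.2%, and of 9 far OLG peaks, or 7.32% (3.40 to 13.4), where all OLG peaks gave 5.71%. In windows 2 kb to the right, 0 of 700 and 0 of 123 held one, which allows shares of up to 0.526% and 2.95% (exact 95% limits). The adjusted p of the exact McNemar test was 4.213e-35 for OPC and 0.00608 for OLG. The run was more frequent in far OPC than in far OLG peaks, with an odds ratio of 2.59 (1.27 to 5.98) and an adjusted p of 0.00634 in Fisher's exact test. Runs had a median of 29 bases in far OPC peaks and 32 bases in far OLG peaks, and the longest were the 59 bases near Id2 in OPC and the 56 bases near Ubash3b in both lists. After those 2, the longest OPC runs lay near Sall1, a spalt-like transcription factor gene (52 bases), near Spin1 (50 bases) and near Zfp536, a zinc finger repressor gene (50 bases).

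Whether the repeat set far peaks apart depended on what they were compared with. Against all other OPC peaks, of which 11.4% held it, the odds ratio was 1.60 (1.27 to 2, adjusted p = 9.992e-05 in Fisher's exact test). Against OPC peaks 10 to 100 kb from a start, of which 18.6% held it, the ratio was 0.898 (0.704 to 1.14, adjusted p = 0.440 in Fisher's exact test). The share was 2.55% within 1 kb of a start, 15.7% at 1 to 10 kb, 17.4% at 100 to 200 kb, 18% at 200 to 500 kb and 10.2% (6 of 59, 3.82 to 20.8) over 500 kb. The lowest share was that of the peaks within 1 kb, and the interval of the last bin takes in the shares of the bins from 1 to 500 kb. For OLG the odds ratio was 1.33 (0.576 to 2.74, adjusted p = 0.450 in Fisher's exact test), and all 9 repeats lay at 100453 to 181699 bp from a start. None of the 51 OLG peaks over 200 kb held the run, which allows a share of up to 6.98%, against 53 of the 320 OPC peaks at that distance (16.6%). Whether that absence holds in wider windows was not tested. At the sites in both lists near Vrk1 and Sulf2, also over 200 kb, runs of 38 and 21 bases were in the OPC window only. Both runs lay within the OPC peak and outside the deposited OLG peak. Introns and gaps did not differ detectably. Of the far OPC peaks inside genes 19.8% held the run and of those outside 15.4% (odds ratio 1.35, 0.882 to 2.05, adjusted p = 0.184 in Fisher's exact test).

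**Figure D3:**
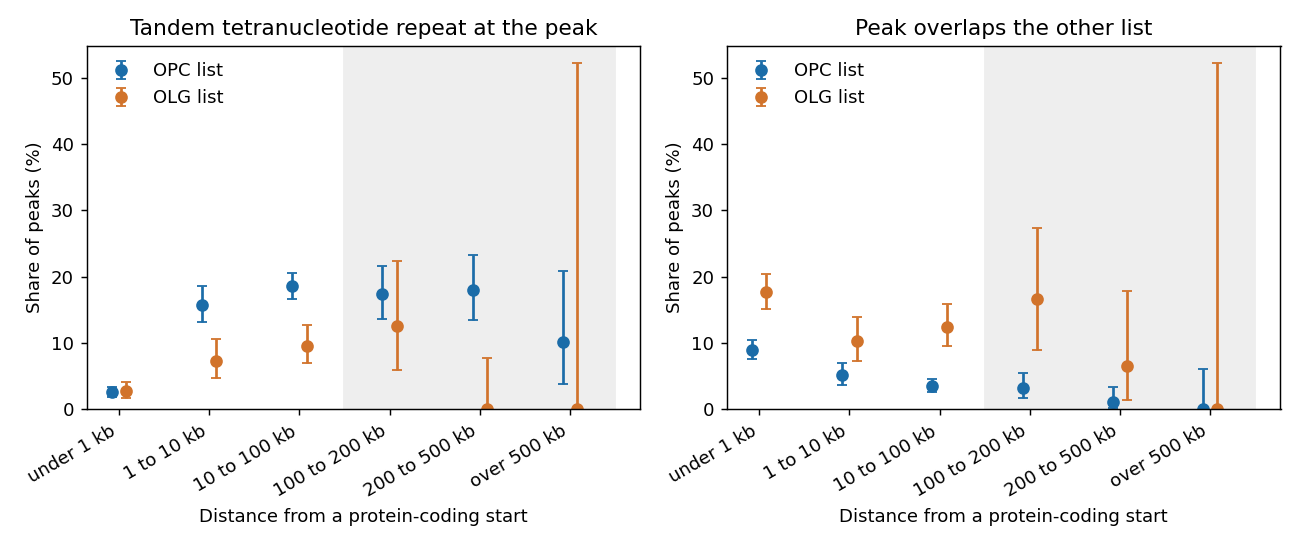
Share of peaks (percent, exact binomial 95% intervals) with a tandem repeat of at least 12 bases (left) and share that overlaps a peak of the other list (right), in 6 bins of distance from a protein-coding start, grey over 100 kb. In OPC the repeat share is 2.55% within 1 kb and 17.4% at 100 to 200 kb, while the overlap share goes from 8.93% to 3.16%; the last OLG bin holds 5 peaks.

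Apart from the repeat unit, no short motif passed the threshold between far peaks and their flanks. Of 20 exact McNemar tests, 10 motifs in each list against the right flank, the only calls were for the doubled unit TCATTCAT, in 131 far OPC peaks (18.7%) against 9 flanks (adjusted p = 3.242e-28) and in 14 far OLG peaks (11.4%) against 1 flank (adjusted p = 0.00977). It is part of every longer run, so these calls overlap with the result above, and none was left among far peaks without the run. The SOX core ACAAAG, read on both strands as all motifs were, was in 19.3% of far OPC peaks and in 19.3% of their flanks, and in 12.8% of the other OPC peaks. The AP-1 site TGANTCA was in 8.29% of far OPC peaks and 5.71% of flanks (adjusted p = 0.461, exact McNemar test), against 5.02% of the other OPC peaks. The GC box GGGCGG, typical of promoters, was in 1.29% of far OPC peaks and 16.8% of the other OPC peaks. In OLG it was in 8.94% of far peaks, 3.25% of their flanks and 26.2% of the other peaks. The CTCF core was in 0.714% of far OPC peaks and 1.57% of flanks. Among the 123 far OLG peaks, AP-1 was in 8.94% against 4.065% of flanks and the E-box CAGCTG in 12.2% against 7.32%. The SOX core was in 20.3% against 16.3%, and the CTCF core in 1.63% of both. The NFI pair was in no far peak or flank, and the CRE, NRF1 and ETS motifs were in at most 3 of either. These 4 motifs were too rare for their tests to give a call.

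Seen from the repeats, those far from genes had a peak less often. Of the genome's TCAT runs of at least 12 bases, 6455 lay over 100 kb from a start and 10433 nearer. An OPC peak centre was within 100 bp of 163 of the far runs (2.53%) and of 583 of the nearer ones (5.59%), an odds ratio of 0.438 (0.365 to 0.523) with an adjusted p of 1.111e-21 in Fisher's exact test. For OLG the numbers were 11 (0.170%) and 124 (1.19%), an odds ratio of 0.142 (0.0690 to 0.263) with an adjusted p of 5.883e-15 in Fisher's exact test. Each run was counted by itself, so a single peak can count for several neighbouring runs. The intervals and p-values treat the runs as independent. Far and nearer runs had the same median length, 14 bases, and in strata of length the odds ratios were 0.459 for OPC and 0.152 for OLG. Against runs 10 to 100 kb from a start they were 0.480 (0.396 to 0.580) for OPC and 0.193 (0.0919 to 0.368) for OLG. Peaks of all kinds also thinned with distance, in OPC from 1.42 per Mb at 10 to 100 kb to 0.215 over 500 kb. Whether far runs lost more peaks than far sequence in general was not tested. The longer the run, the more often it had an OPC peak, far from genes as well. Among far runs the share rose from 1.00% at 12 to 15 bases to 4.17% at 24 to 31 bases, 13.1% at 32 to 47 bases and 28.0% (7 of 25) at 48 bases or more, where nearer runs had 2.34%, 10.4%, 21.3% and 51%. Most far runs of every length had no called peak in either cell type.

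**Figure D4:**
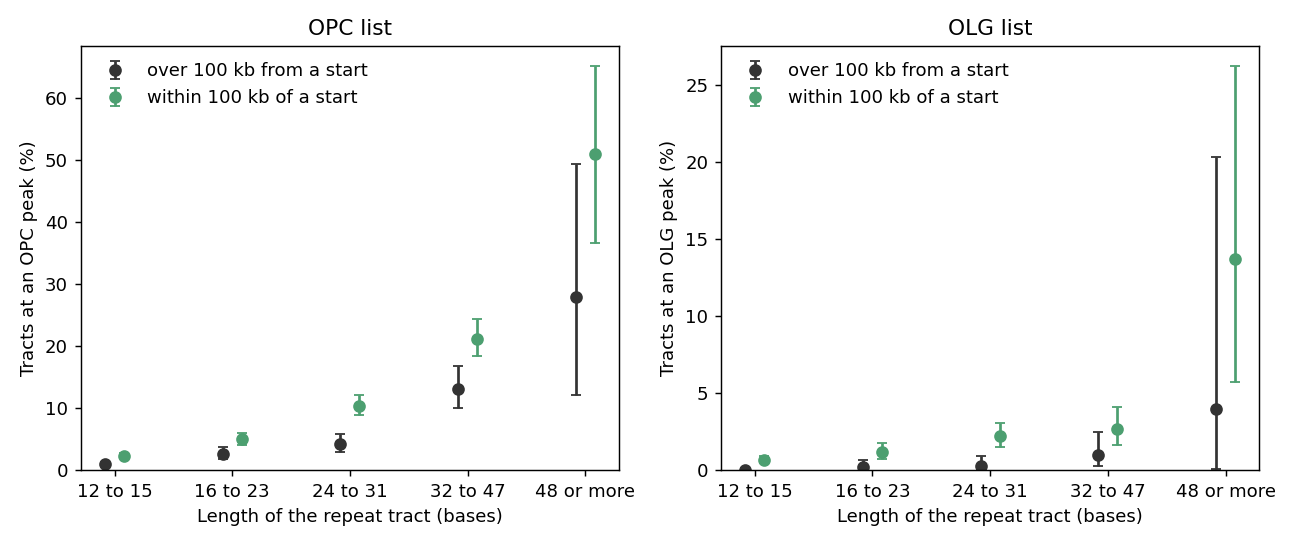
Share of the genome's repeat tracts (percent, exact binomial 95% intervals) with a peak centre within 100 bp, by tract length in bases, for tracts over and within 100 kb of a protein-coding start, with OPC on the left and OLG on the right. OPC shares rise with length from 1.00% to 28.0% far from genes and from 2.34% to 51% nearer.

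Both cell types shared 15 far sites, and the repeat was at most of them. These are 2.14% of the far OPC peaks, where all OPC peaks gave 5.47%, and 12.2% of the far OLG peaks, where all OLG peaks gave 14.5%. The far OPC peaks overlapped an OLG peak less often than the other OPC peaks (6.06%, odds ratio 0.339, 0.186 to 0.576, adjusted p = 1.038e-05 in Fisher's exact test), but against OPC peaks 10 to 100 kb from a start (3.49%) the difference missed the threshold (odds ratio 0.606, 0.316 to 1.10, adjusted p = 0.124). For far OLG peaks the odds ratio against the other OLG peaks was 0.808 (0.430 to 1.42, adjusted p = 0.509, Fisher's exact test). The 2 lists differ in length, so each share is given of its own list. Of far OPC peaks with the run 11 of 119 (9.24%) were in both lists, and of those without it 4 of 581 (0.688%), an odds ratio of 14.6 (4.23 to 64.0, adjusted p = 3.944e-06, Fisher's exact test). Of far OLG peaks 8 of the 9 with the run were in both lists, and 7 of the 114 without it (6.14%, adjusted p = 1.489e-07, Fisher's exact test). These counts use the window of each list's own peak. At 7 of the 15 sites a run was in both windows. At the shared sites of Sulf2, Foxl1, Vrk1 and 2010111I01Rik the run was in the OPC window only, and at that of Ets2 in the OLG window only. In these cases the run also lay outside the other list's deposited peak. Counted at the site, 12 of the 15 held a run, and the lengths given below for shared sites are those. The repeat went with sharing in the other peaks too, where 18.8% of OPC peaks with the run and 4.43% of those without it were in both lists, and 79.1% and 10.9% of OLG peaks. Among OPC peaks with the run, the far ones were shared less often than the others (odds ratio 0.442, 0.205 to 0.871, adjusted p = 0.0179 in Fisher's exact test). The ninth OLG run, of 29 bases in an intron of the semaphorin receptor gene Plxnc1, was in the OLG list only.

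**Figure D5:**
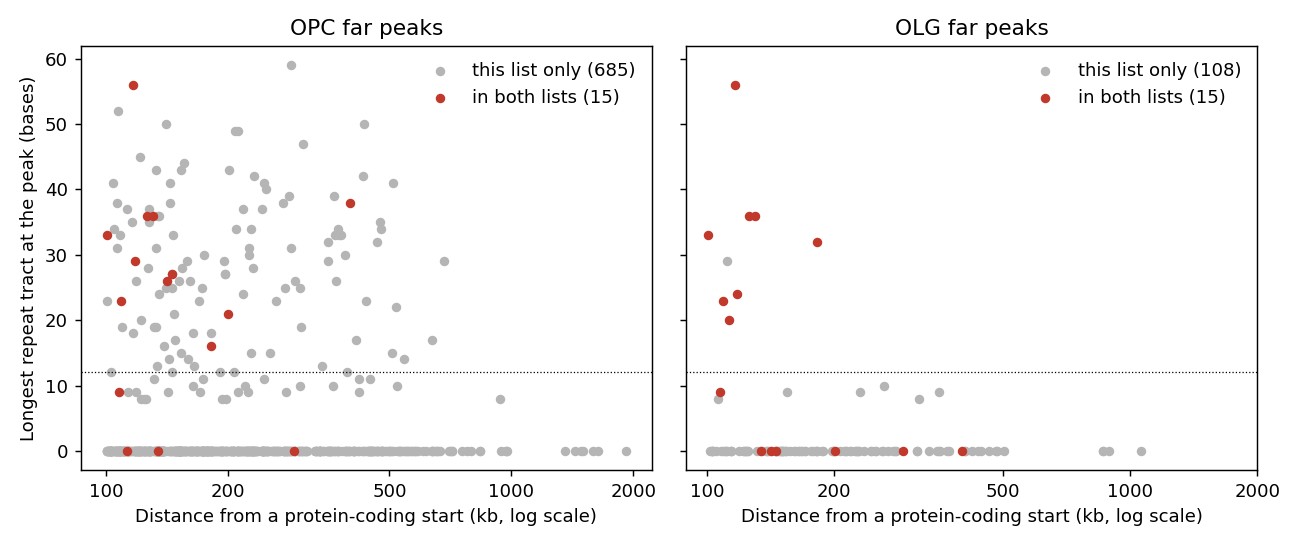
Longest repeat tract in the 200 bp window (bases, tracts under 8 bases drawn at 0) against distance from a protein-coding start (kb, log axis) for far OPC peaks (left) and far OLG peaks (right), with peaks in both lists in red and the 12-base limit dotted. All 9 OLG tracts of at least 12 bases lie within 200 kb, and 8 of them are in both lists.

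Of the 15 shared sites, 6 were inside protein-coding genes. The intron of Nos1ap, which encodes an adaptor of neuronal nitric oxide synthase, held a run of 36 bases 130282 bp from the gene's start. The intron of Prkch also held one of 36 bases, 126089 bp from the hypoxia factor gene Hif1a and 190489 bp from Prkch itself. The run in the intron of Slit3, a secreted guidance ligand for Robo receptors, had 32 bases and was nearer to Pank3 (181725 bp) than to Slit3 (466535 bp). Chst11, a chondroitin sulfotransferase gene, held one of 29 bases at 117925 bp. The other host genes were 2010111I01Rik, with a run of 31 bases at an exon, and Gm20388, with a run of 27 bases 145601 bp from the forkhead gene Foxl1.

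The other 9 shared sites lay between genes. The longest run, 56 bases, was 116338 bp from Ubash3b, a phosphatase gene, in the gap to the sorting receptor gene Sorl1. The site near the kinase gene Vrk1 was the most distant of the 15, at 400300 bp, with 38 bases, and that near the sestrin gene Sesn3 had 33. Runs of 23, 21 and 20 bases lay near Tex36, near the heparan sulfatase gene Sulf2 and near the transcription factor gene Ets2. The remaining 3 sites had no run of 12 bases. They were 107611 bp from the adhesion gene Cadm1 (9 bases), 134007 bp from the transcription factor gene Ets1, and between Ppargc1a, a coactivator of mitochondrial genes, and the RNA helicase gene Dhx15. Of the 15 sites 3 were over 200 kb from a start, and the OPC and OLG centres were 0 to 196 bp apart. A further 5 pairs of far OPC and OLG peaks had centres within 1 kb without overlap, near Cog6, Matn1, Zmiz1, Slc39a11 and again in Prkch.

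Among the genes beside far peaks were many that direct the oligodendrocyte lineage. A gene was counted as flanking when its start was the nearest one to the left or right of a far peak. Of the 4200 protein-coding genes that border far sequence, 892 flanked a far OPC peak, 21.2%, and 218 a far OLG peak, 5.19%. Of 30 lineage regulators that border far sequence, 19 (63.3%) flanked a far OPC peak and 6 (20.0%) a far OLG peak. Per Mb of their bordering far sequence, the regulators had 1.47 far OPC peaks and 0.205 far OLG peaks, against 0.675 and 0.118 for all genes. As hosts the regulators gave 3 of 11 genes in OPC and 0 of 11 in OLG. Progenitor genes flanked far OPC peaks in 9 of 17 cases and far OLG peaks in 1 of 17, and their density, 0.678 per Mb in OPC, was near that of all genes. Myelin and mature oligodendrocyte genes flanked in 3 of 10 and 1 of 10 cases, and their density of 2.32 per Mb came from 3 genes, Kirrel3, Qk and Car2. In all, 60 far OPC peaks and 9 far OLG peaks lay in or beside a gene of these 3 lists, and for 30 of the 60 and 6 of the 9 the nearest start was that of the list's gene.

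SOX family genes were among those with several far peaks. Sox2, a factor of neural progenitors, was flanked by 6 far OPC peaks from 112410 to 810876 bp from its start and by no far OLG peak, and none had the TCAT run. Of these 6, 3 were nearer to Atp11b or Dnajc19. Sox11 and Sox6 were flanked by 4 far OPC peaks each and no far OLG peak, of which 1 and 2 were nearer to another start, and one of the Sox6 sites, 372652 bp away, held a run of 34 bases. Sox9, which acts in glial specification, was flanked by 4 far OPC peaks, of which that at 520377 bp held a run of 23 bases, and by an OLG peak 36 bases from the edge of that OPC peak. All 5 were nearer to Kcnj2 or Slc39a11 than to Sox9. Sox4 was flanked by 3, of which 2 held runs of 25 and 17 bases at 301450 and 414882 bp and the other was nearer to Gm11361. An intron of Sox5, which with Sox6 holds back differentiation, held 1 that was nearer to Bcat1.

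Tcf7l2, the Wnt pathway effector needed for oligodendrocyte differentiation, had the densest far OPC peaks of the 3 lists. It was flanked by 6 far OPC peaks from 134265 to 249561 bp from its start and by 1 far OLG peak at 167106 bp, and its 14.4 far OPC peaks per Mb rest on 0.417 Mb of far sequence. Of the 6 OPC peaks 3 were nearer to Vti1a or Habp2. Its far OLG density, 2.40 per Mb from 1 peak, was below those of Chd7 (3.15) and Gli2 (2.54), also from 1 peak each. None of its peaks held the run. Among inhibitors of bHLH factors, Id2 was flanked by the OPC peak with the longest run at 286624 bp and by an OLG peak without a run at 151376 bp, and Id4 by 2 OPC peaks at 114225 and 218715 bp. Hes1, a Notch target, was flanked by 2 OPC peaks at 251595 and 300560 bp, both nearer to Opa1.

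Single far peaks flanked further regulators. Nfia, a gliogenic factor gene, was flanked by an OPC peak with a run of 44 bases, 449447 bp away, but that peak was nearer to Tm2d1. Zfp536 had 2 OPC peaks, one in its body at 280975 bp and one outside at 433450 bp with a run of 50 bases. Chd7, a chromatin remodeller gene, was flanked by an OPC peak at 274558 bp, which was nearer to Clvs1, and an OLG peak at 160478 bp, and Tcf4, a bHLH partner gene, by an OPC peak at 400674 bp and an OLG peak at 368780 bp. The hedgehog effector genes divided, with an OLG peak 149186 bp from Gli2 and an OPC peak inside Gli3 at 160896 bp. Nr2f1, Nr2f2, Zeb1 and Zeb2 were each flanked by 1 OPC peak, that of Zeb2 2981624 bp away and far nearer to Acvr2a. That of Zeb1 was nearer to Arhgap12.

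In the other lineage lists Kirrel3, an adhesion gene, had 7 far OPC peaks, 3 of them in its body, and 2 far OLG peaks. Of these, 5 OPC peaks and both OLG peaks were nearer to Ets1 or St3gal4. The peaks outside its body lay in the wide gap to Ets1, at up to 1655735 bp from Kirrel3. Qk, the gene of an RNA-binding protein of myelin transcripts, was flanked by 2 OPC peaks at 123484 and 211315 bp, and the carbonic anhydrase gene Car2 by 1 at 308065 bp that was nearer to Gm9733. Of the progenitor genes, Opcml held an OPC peak at 363733 bp and an OLG peak at 212717 bp in its body, Xylt1, which starts the chains of proteoglycans, held an OPC peak with a run of 34 bases at 227971 bp, and Lhfpl3 held 1 OPC peak. Tnc, the tenascin-C gene, Luzp2, Nxph1 and Pcdh15 were flanked by 1 OPC peak each, at 260127 bp for Tnc and at 2183140 bp for Luzp2. The peak of Luzp2 was nearer to 1700015G11Rik, that of Nxph1 to Ndufa4 and that of Pcdh15 to Zwint.

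The other lists are read against all genes, of which 21.2% flanked and 14.5% hosted a far OPC peak. Synaptic and neural adhesion genes flanked far OPC peaks in 40 of 85 cases (47.1%) and hosted them in 19 of 70 (27.1%), yet had 0.316 far OPC peaks per Mb, less than the 0.675 of all genes. Channels and neurotransmitter receptors flanked in 12 of 55 cases and hosted in 8 of 54, which are 21.8% and 14.8% and near the shares of all genes, also at 0.316 per Mb. Axon guidance genes flanked in 18 of 33 cases and hosted in 8 of 28, at 0.682 per Mb. Developmental transcription factors flanked in 34 of 77 cases and hosted in 8 of 25, at 0.997 per Mb, and this list shares members with the lineage regulators. For far OLG peaks these 4 lists had 0.0466, 0.105, 0.114 and 0.213 per Mb in the order given, against 0.118 for all genes. Markers of other cell types that border far sequence were few. Neuronal markers flanked far OPC peaks in 3 of 12 cases, astrocyte markers in 3 of 7, microglial markers in 0 of 2 and vascular markers in 2 of 6, and of these only 1 astrocyte marker flanked a far OLG peak. Per Mb these 4 lists had 0.736, 1.33, 0 and 0.736 far OPC peaks. The astrocyte value was near the 1.47 of the lineage regulators, but those markers share Sox9 and Gli3 with the regulators. Of the 6 far OPC peaks of the astrocyte list, 4 lay beside Sox9 and 1 in Gli3, so they are the same peaks. The astrocyte far OLG density was 0.222 per Mb, against 0.205 for the regulators, and came from 1 peak, which lay beside Sox9. As hosts of far OPC peaks the 4 lists gave 3 of 5, 1 of 2, 0 of 1 and 0 of 1. The counts of genes are descriptions, because neighbouring genes share gaps and 1 far peak counts for the genes on both sides.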

How the data were processed

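ZFP24 ChIP-seq reads (75 nt, single end, per the labels' protocols) were processed by the submitters with BWA (version not given) and HOMER 4.8.3 on mm10, per the submitters' processing notes, and the options of the peak caller are not stated there or in the labels. The deposited lists hold chromosome, start, end and a name, with no counts, score or fold. OPC peaks are 209 bp wide and OLG peaks 221 bp. A list depends on library depth, which is unknown, and on the calling threshold as well as on binding. Reads of the null and input libraries were not used here.

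Positions are 1-based. Starts came from GENCODE M21 basic (transcripts of type protein coding) and sequence from GRCm38.p6. A repeat was a run of at least 12 bases of tandem TCAT in the 200 bp around the centre, flanks lay 2 kb away, and lists overlapped by at least 1 bp. Far and other peaks were compared with Fisher's exact test, peaks and flanks with the exact McNemar test, both two-sided with a threshold of 0.05 after Benjamini-Hochberg adjustment over 14 tests (20 for motifs). Share intervals are exact (Clopper-Pearson). Python 3.11.15, numpy 2.4.6, pandas 2.3.3, scipy 1.17.1 and statsmodels 0.14.6 were used, and the steps were tested on simulated data. Named sites were all far sites in both lists, the 5 farthest and the 5 with the longest run per list, up to 8 hosts with at least 2 far peaks, the 6 fullest gaps, far peaks beside genes of the first 3 lists and the peaks at the 100 kb limit. The members, lists and rules were chosen with earlier results of these data known. Settings varied were the distance, gene types, repeat length, window, flank, overlap, comparison peaks and clustering. Leaving out mostly masked peaks, counting Gm20388 as no gene, strata of tract length and tracts at 10 to 100 kb were added after seeing the data.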

Additional observations from a re-analysis of the deposited data

How the results depend on the processing

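Of 75 alternative settings over the tests of far peaks and tracts and the count of motif calls, 65 left the direction and the call as they were. Some tests were not varied: the repeat in far OPC against far OLG peaks, and inside against outside genes. Nor were the tests of lying in both lists with against without the repeat. The comparison peaks mattered most. Against peaks 10 to 100 kb from a start, the odds ratio of the TCAT repeat turned to 0.898 in OPC and 0.748 in OLG, both short of the threshold, and that of lying in both lists was 0.606 in OPC, no longer past it. The OLG repeat comparison rests on 9 far peaks: its odds ratio was 1.83 with runs of at least 8 bases (adjusted p = 0.0478), 1.79 with far meaning over 50 kb (adjusted p = 0.0327) and 0 over 200 kb (adjusted p = 0.145, Fisher's exact test). With runs of at least 8 bases the excess over the right flank was 6.50 percentage points in OLG and missed the threshold (exact McNemar test, adjusted p = 0.161). Among repeat peaks alone, the odds ratio of far OLG peaks for lying in both lists was 2.10, also short of the threshold. Motif calls fell from 2 to 1 against the left flank and to 0 without repeat peaks, where the peaks that carried the calls are left out. The causes of the other changes were not tested.

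No paired analysis was possible because each group has 1 library. Unknown depth limits every comparison of OPC with OLG, since a difference in depth or threshold between the 2 lists cannot be told apart from a difference in binding.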

Other observations

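The number in the name of each deposited peak, whose meaning the labels do not state, was lower at far peaks with the TCAT repeat. Ranked within the chromosome from 0 to 100%, far OPC peaks had a median rank of 60.9% and other OPC peaks 47.8%. Far OPC peaks with the repeat had a median of 20.6% and those without it 66.2%, and the far OPC peaks in both lists had a median of 6.99% with none above 27.3%. In the OLG list the medians were 8.82% with the repeat, 63.6% without it and 10.8% for the sites in both lists, but both the repeat peaks and the sites in both lists reached 93.9%. These are values only, with no test.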
